A study of Mus musculus with 6 samples.

Results

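The genes described here are 7 rows of the deposited table, chosen by symbol from 24391: the carriers Slc6a6, Slc6a8, Slc6a9, Slc6a15 and Slc6a17 of the solute carrier 6 (SLC6) family, and Csad and Cdo1, enzymes of taurine synthesis. Poly(A) RNA was sequenced from Neuro2a cells, a mouse neuroblastoma line, in 3 control libraries given vehicle and 3 libraries given 5 mM D-serine for 18 h. All 6 were cultured in D-MEM with 10% fetal bovine serum and then moved to a medium written as D-MEM(-SG), also with 10% serum, so the controls share that change of medium. The labels do not say whether the 3 libraries of a group came from separate cultures, so p-values measure the spread between these libraries, which may be technical. The 7 symbols were chosen with the D-serine against control results of these libraries known. The members' own differences are therefore given as descriptions, and their adjusted p-values only place them among all genes fitted. The description of the choice also mentions carriers of GABA, but none of the 5 listed carriers is a GABA transporter.

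SLC6 proteins carry amino acids and related small molecules into cells by coupling them to the sodium gradient, in most cases together with chloride. Taurine, a sulfur-containing amino acid that is not built into proteins, is held at high concentration in brain and is released or taken up when cells adjust their volume. Cells obtain it by uptake through the SLC6A6 protein, or make it from cysteine, which CDO1 oxidises to cysteine sulfinic acid and CSAD decarboxylates to hypotaurine. D-serine, the enantiomer of L-serine, binds together with glutamate to activate NMDA receptors in brain.

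Library totals ran from 32518483 to 40024265 counts, and 13366 genes passed the filter on low counts. The summed level of 12 sympathoadrenal and neuronal markers was 1638 to 1714 CPM (counts scaled to library size, in counts per 1000000) in the controls and 1754 to 1881 CPM with D-serine. The markers were uneven. Tubb3 alone stood at 467 to 624 CPM, and the sympathoadrenal factors Hand2 and Gata2 at 239 to 261 and 146 to 161 CPM. Th and Dbh, from the same 12, were low, at 1.15 to 2.96 and 1.24 to 1.94 CPM. Of the 12, Tubb3 (log2 fold change 0.25, edgeR adjusted p = 0.0148) and Mycn (0.15, 0.0475) were called higher with D-serine and none lower. Of all tested genes, 4.84% were called higher and 4.90% lower. Tubb3 was not past an adjusted p of 0.05 without control replicate 1 (0.0807) or 2 (0.0719), and Mycn was past it in 2 of the 6 fits on 5 libraries. Summed levels of 6 glial, 5 fibroblast and 5 immune markers reached at most 3.02, 6.90 and 2.23 CPM, with Sox10 and Ptprc between 0 and 0.11 CPM in each library. The fibroblast marker Pdgfra stood at 3.54 to 5.68 CPM, above Th and Dbh. The part of these markers in the differences below was not tested. D-serine replicate 1 stood apart from the other libraries: its genes were recovered the less, the longer they were, with a slope of -0.072 log2 CPM per doubling of exonic length, against 0.0058 and -0.0040 in D-serine replicates 2 and 3 and 0.015 to 0.036 in the controls. The differences of Slc6a6, Slc6a9, Cdo1, Slc7a11 and Nfat5 are given below with and without it.

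Of the 7 members, 6 were tested and Slc6a17 was not, because its counts were too low. Of the 6, Slc6a6 was past an adjusted p of 0.05 as lower with D-serine and none as higher, beside 4.90% of all tested genes called lower and 4.84% called higher (9.74% together). The fitted log2 fold change of each of the 6 lay below 0, with a median of -0.12, where the median of all tested genes was 0.0053. That of Csad was close to 0 and turned positive under upper quartile scaling and under library totals. In 2 of the 6 the libraries of the groups were apart without overlap, Slc6a6 and Slc6a9, both lower with D-serine, beside 32.9% of all tested genes without overlap in either direction and 16.6% lower without overlap. From the way the members were chosen, nothing is read from these counts.

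Slc6a6 encodes the sodium- and chloride-dependent taurine transporter (chromosome 6, 91634061 to 91709057, plus strand, 6169 exonic bases in the table). Its level was 158, 156 and 158 CPM in control replicates 1 to 3 and 93.9, 117 and 107 CPM in D-serine replicates 1 to 3. The control libraries lay close together and each D-serine library lay well below the lowest control, so the groups did not overlap. The fitted log2 fold change was -0.57 (SE 0.065, 95% interval -0.71 to -0.43, edgeR adjusted p = 0.00145) or 0.675 times the control level. As in any bulk sample, fewer cells that express a gene and less RNA per cell cannot be told apart.

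The spread of Slc6a6 was unequal between the groups, with a coefficient of variation of 0.736% in control and 10.9% with D-serine. D-serine replicate 1, the library with the lowest length slope, was the lowest of the 3. Without it the log2 fold change of Slc6a6 was -0.49 (adjusted p = 1.67e-06), and with the length trend of every library removed it was -0.49 (adjusted p = 4.49e-06). The other 1646 tested genes with 5000 to 7500 exonic bases, a range around the length of Slc6a6, had a median log2 fold change of -0.070, and 13 of them were lower than Slc6a6. Slc6a6 stayed past the threshold in all 14 alternatives run, with a log2 fold change between -0.64 and -0.49.

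**Figure D1:**
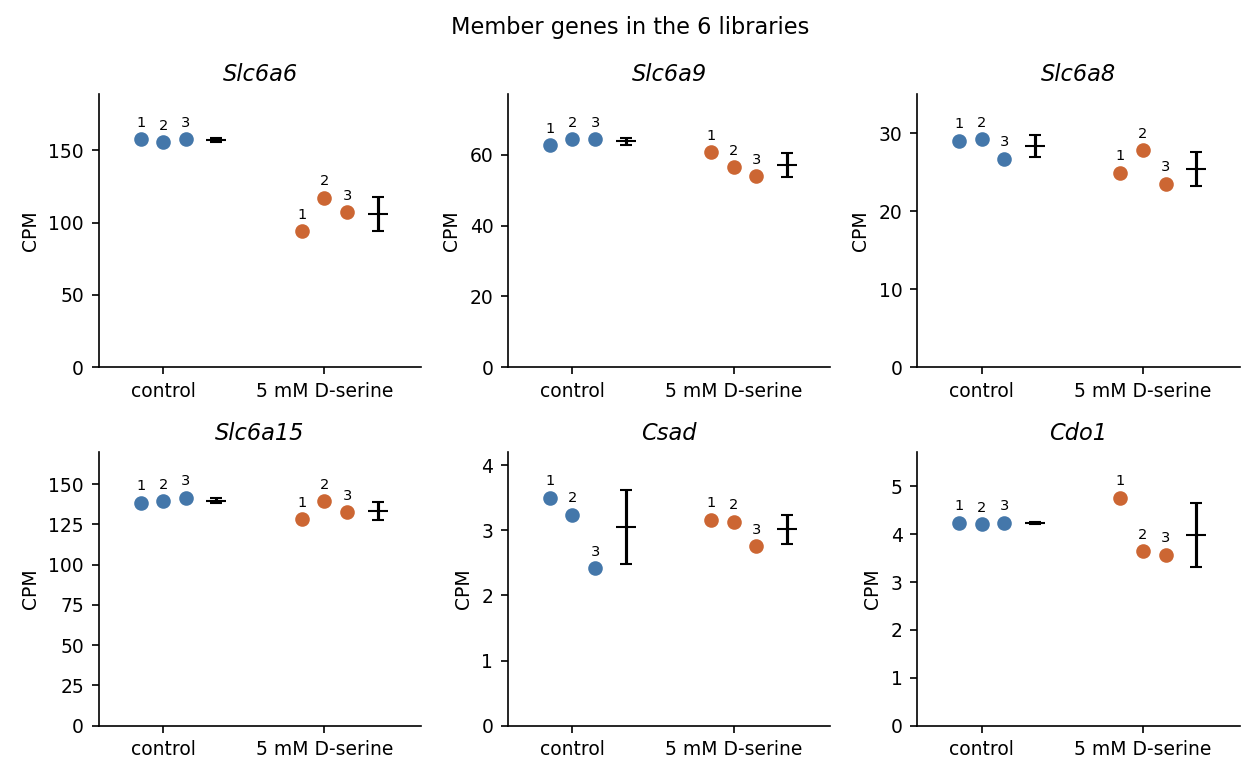
Level of each tested member in CPM (vertical axes start at 0), with 1 point per library, its replicate number above it, and the mean ± SD of 3 libraries as a black bar. Slc6a6 lies at 156 to 158 CPM in the controls and at 93.9 to 117 CPM with D-serine, whereas the groups overlap in Slc6a8, Slc6a15, Csad and Cdo1.

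Among strongly expressed genes, Slc6a6 had the lowest fold change of this contrast. Of the 2735 other tested genes with a mean of at least 100 CPM, none had a lower log2 fold change, and the next was Spen, which encodes a large transcriptional repressor, at -0.47. The median of these 2735 genes was -0.045. Of them 338 were called lower and 69 higher, beside 4.90% of all tested genes called lower and 4.84% called higher, so lower calls prevailed at this level. This position is a description of a gene that was chosen for its difference.

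**Figure D2:**
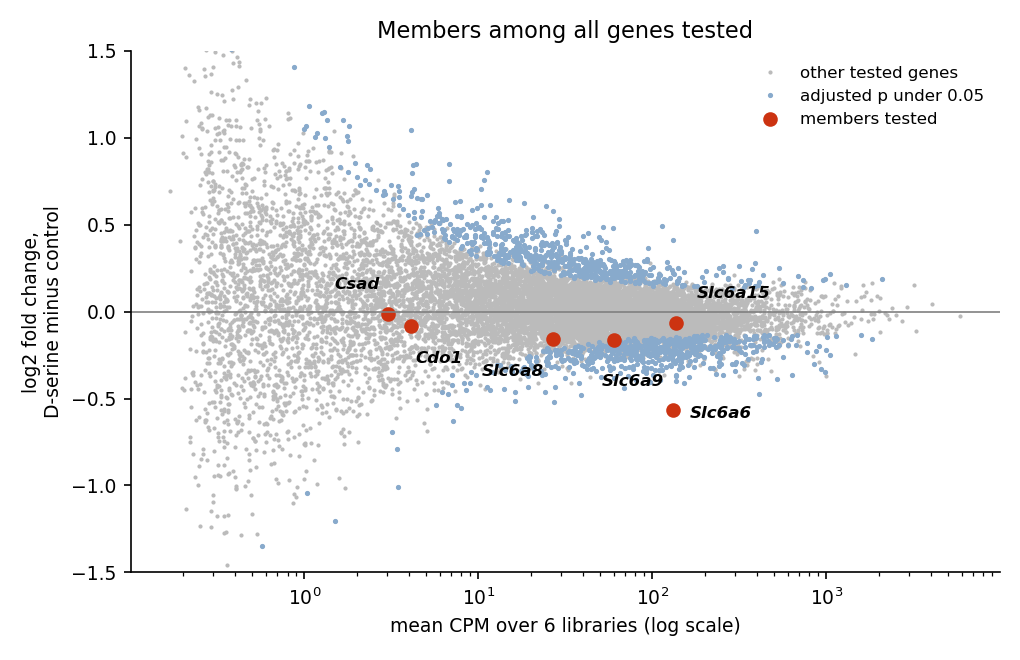
Log2 fold change of D-serine against control (vertical axis) over the mean CPM of the 6 libraries (horizontal log axis) for the tested genes, with genes past an adjusted p of 0.05 in blue and the 6 tested members in red; 24 genes lie outside the drawn range. Slc6a6, at -0.57, lies below every other gene with a mean of at least 100 CPM, and the other 5 members lie between -0.16 and -0.015, within the band of uncalled genes.

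Slc6a9 encodes GlyT1, a glycine transporter that clears glycine around NMDA receptors (chromosome 4, 117507863 to 117541910, plus strand, 3272 exonic bases). It shares 44 exonic bases with Ccdc24 on the opposite strand, and the strand setting of the counting is not given in the sources used here. Slc6a9 stood at 62.8, 64.4 and 64.4 CPM in the controls and at 60.7, 56.6 and 53.9 CPM with D-serine. Every D-serine library lay below every control library, by a small margin for replicate 1. The log2 fold change was -0.16 (SE 0.054, 95% interval -0.28 to -0.045, edgeR adjusted p = 0.0744). Slc6a9 passed the threshold in 3 of the 14 alternatives. Without D-serine replicate 1 the log2 fold change was -0.21 with an adjusted p of 0.0103, and with the length trend removed it was -0.16 with an adjusted p of 0.0318, or 0.0399 with the replicate block added.

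Slc6a8 encodes the creatine transporter (chromosome X, 70918472 to 70927839, plus strand, 3979 exonic bases). Its level was 29.1, 29.2 and 26.8 CPM in the controls and 25.0, 27.8 and 23.5 CPM with D-serine. D-serine replicate 2 lay above control replicate 3, so the groups overlapped. The log2 fold change was -0.16 (SE 0.074, 95% interval -0.32 to 0.0034, edgeR adjusted p = 0.186), a value close to that of Slc6a9 with a wider error.

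Slc6a15 encodes a sodium-dependent transporter of branched-chain amino acids and proline that is found mainly in brain (chromosome 10, 102830442 to 102882013, plus strand, 3644 exonic bases). It measured 138, 139 and 142 CPM in the controls and 128, 139 and 133 CPM with D-serine. D-serine replicate 2 lay within the control range and the other 2 below it. The log2 fold change was -0.067 (SE 0.045, 95% interval -0.16 to 0.030, edgeR adjusted p = 0.352), so a decrease of 0.57 on the log2 scale, the size seen in Slc6a6, lies outside its interval.

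Slc6a17 encodes a carrier of neutral amino acids found on synaptic vesicles (chromosome 3, 107270466 to 107320936, minus strand, 6317 exonic bases). It had 4 counts in control replicate 1, 2 counts in D-serine replicate 1 and 0 in the other 4 libraries. A count of 0 allows up to 3 counts in a library, or 0.074 to 0.082 CPM in those 4 libraries, a limit that covers counting error only. Both groups were at or near that limit, so no fold change is given.

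The enzymes of taurine synthesis were expressed at low levels. Cdo1, cysteine dioxygenase (chromosome 18, 46872859 to 46887996, minus strand, 1530 exonic bases), had between 134 and 187 counts per library. Its level was 4.24, 4.20 and 4.24 CPM in the controls and 4.77, 3.64 and 3.57 CPM with D-serine. D-serine replicate 1 lay above all controls and the other 2 D-serine libraries below them. The log2 fold change of Cdo1 was -0.082 (SE 0.15, 95% interval -0.41 to 0.25, edgeR adjusted p = 0.765), and without D-serine replicate 1 it was -0.23 (adjusted p = 0.403).

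Csad, cysteine sulfinic acid decarboxylase (chromosome 15, 102007429 to 102019474, minus strand, 2265 exonic bases), had between 90 and 124 counts per library. Its level was 3.50, 3.23 and 2.42 CPM in the controls and 3.16, 3.13 and 2.75 CPM with D-serine, and all 3 D-serine libraries lay inside the control range. The log2 fold change was -0.015 (SE 0.18, 95% interval -0.41 to 0.38, edgeR adjusted p = 0.972). The intervals of Csad and Cdo1 thus leave room for changes in either direction.

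To compare levels between genes, CPM were divided by exonic length in kilobases. In control the order from high to low was Slc6a15 at 38.4 ± 0.46, Slc6a6 at 25.5 ± 0.19, Slc6a9 at 19.5 ± 0.29, Slc6a8 at 7.13 ± 0.35, Cdo1 at 2.77 ± 0.015, Csad at 1.35 ± 0.25 and Slc6a17 at 0.0065 ± 0.011 CPM per kilobase (SD, n = 3). No 2 neighbours in this order overlapped in control. Slc6a15 exceeded 83.2% of tested genes on this scale, Slc6a6 74.3%, Slc6a9 67.8%, Slc6a8 42.6%, Cdo1 27.2% and Csad 19.5%.

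With D-serine, the libraries of Slc6a6 and Slc6a9 overlapped. Slc6a6 stood at 15.2, 19.0 and 17.4 CPM per kilobase in D-serine replicates 1 to 3, and Slc6a9 at 18.6, 17.3 and 16.5. The ratio of Slc6a6 to Slc6a9 per length was 1.33, 1.28 and 1.30 in control and 0.821, 1.10 and 1.05 with D-serine, so it was above 1 in every library other than D-serine replicate 1. Without that library, Slc6a6 at 17.4 and 19.0 lay just above Slc6a9 at 16.5 and 17.3. All other neighbours kept their order without overlap. Slc6a15 was highest in both groups, at 36.6 ± 1.56 CPM per kilobase with D-serine (SD, n = 3), and Slc6a6 per Slc6a15 went from 0.657 to 0.673 in the control libraries to 0.433 to 0.496 in the D-serine libraries.

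**Figure D3:**
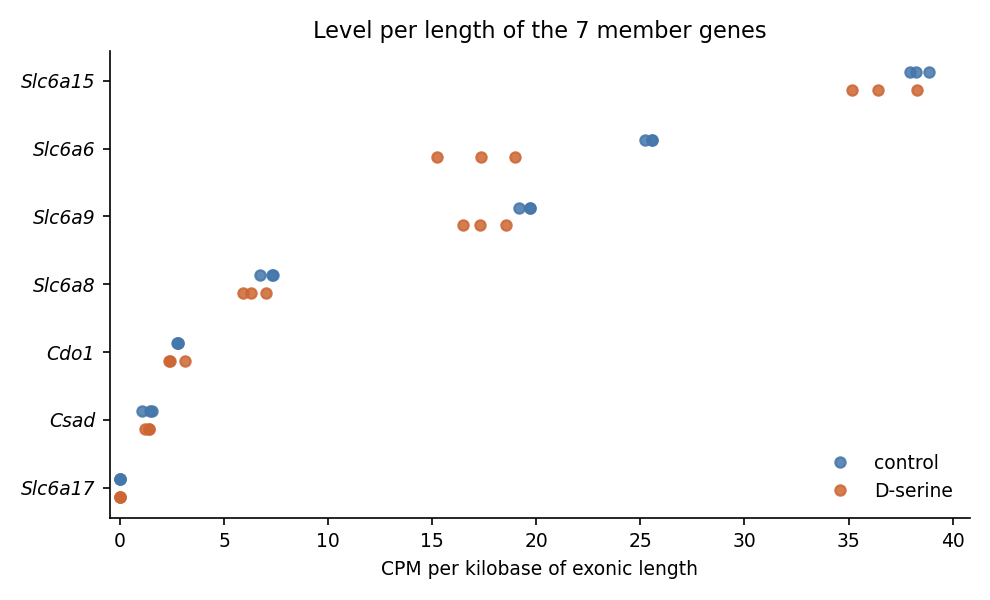
CPM per kilobase of exonic length (horizontal axis) of the 7 members, 1 point per library, ordered by the control mean. In control Slc6a6 lies between Slc6a15 and Slc6a9, and with D-serine its libraries, at 15.2 to 19.0, overlap those of Slc6a9, at 16.5 to 18.6.

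The other SLC6 genes were nearly silent in these cells. Of 16 further family symbols, 15 were found in the table, 1 of them (Slc6a21) under the clone name that RefSeq lists as its synonym. Only Slc6a13, a transporter of GABA and taurine, passed the filter, with 20, 8 and 14 counts in control and 14, 20 and 22 with D-serine (log2 fold change 0.27, SE 0.45, edgeR adjusted p = 0.733). The groups of Slc6a13 overlapped, and its sign was negative without control replicate 2 (-0.033). Of the 14 others, 4 had no count in any library (Slc6a2, Slc6a3, Slc6a11 and Slc6a18) and 10 had at most 6 counts in a library. Among these was Slc6a12, which encodes a betaine and GABA carrier, with 0 to 6 counts.

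Slc6a15, Slc6a6, Slc6a9 and Slc6a8 thus carried nearly all SLC6 transcripts. Summed over the 20 SLC6 genes, the level was 90.4, 90.7 and 91.2 CPM per kilobase in control and 75.5, 82.0 and 76.5 with D-serine, without overlap. This sum includes Slc6a6, which was chosen with its difference known. Slc6a6 alone went from a mean of 25.5 to 17.2 CPM per kilobase, where the mean sum went from 90.8 to 78.0. The separation of the sums is therefore not a result about the family. The 15 genes that are not members made up 0.177% to 0.616% of the sum in any library. Slc6a6 held 28.0% ± 0.22 of it in control and 22.0% ± 1.597 with D-serine, and Slc6a15 42.3% ± 0.32 and 46.9% ± 0.56 (SD, n = 3). The share of Slc6a9 was 21.5% ± 0.26 in control and 22.4% ± 1.90 with D-serine, and that of Slc6a8 was 7.85% ± 0.42 and 8.19% ± 0.41. These larger shares are no gain in level, since the sum itself was lower with D-serine. Mean levels of Slc6a15, Slc6a9 and Slc6a8 were 38.4, 19.5 and 7.13 CPM per kilobase in control. With D-serine they were 36.6, 17.4 and 6.39.

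Around taurine itself, 11 further genes were listed and 7 were tested. None of the 7 was past an adjusted p of 0.05 in the edgeR fit, beside 9.74% of all tested genes in either direction. The median log2 fold change of the 7 was 0.10, with 6 above and 1 below 0. Ado, the dioxygenase that makes hypotaurine from cysteamine, stood at 107, 108 and 102 CPM in the controls and 117, 112 and 115 CPM with D-serine. The groups of Ado did not overlap, and its log2 fold change was 0.12 (SE 0.045, edgeR adjusted p = 0.0980). It was past the threshold with the length trend removed (0.16, adjusted p = 0.0135). The 1 value below 0 belonged to Slc36a1, a proton-coupled carrier of small amino acids, whose log2 fold change was -0.018 (SE 0.066, adjusted p = 0.898) and changed sign with upper quartile scaling, library totals or the length trend removed.

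None of the other tested taurine genes was past the threshold either. Slc16a6, a carrier of the monocarboxylate family, stood at 69.1 ± 3.61 CPM in the controls and 72.8 ± 1.72 CPM with D-serine (± SD of 3 libraries, log2 fold change 0.075, edgeR adjusted p = 0.374). It shares 1598 exonic bases with a transcript on the opposite strand and 48 with Arsg, so its counts are uncertain. Gtpbp3 (log2 fold change 0.23, adjusted p = 0.0880) and Mto1 (0.076, 0.488) together place the taurine modification on mitochondrial tRNAs. Baat, which conjugates bile acids to taurine, was at most 1.10 CPM in a library (0.86, adjusted p = 0.117). In Gtpbp3 and Baat, as in Ado, every D-serine library lay above every control library, and in Mto1 the groups overlapped. Such separation is common, found in either direction in 32.9% of all tested genes, and Baat had only 15 to 43 counts per library. Pter, which hydrolyses N-acetyltaurine, had a log2 fold change of 0.10 (adjusted p = 0.697) and shares 1568 exonic bases with C1ql3 on the opposite strand. Gadl1, a related decarboxylase, had counts in 1 control and 1 D-serine library and was at most 0.051 CPM.

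Of 13 genes that supply or use cysteine, the precursor of taurine, all were tested, and 2 were past the threshold as lower and 0 as higher, beside 4.90% and 4.84% of all tested genes. Their median log2 fold change was -0.052, with 8 below and 5 above 0. Slc7a11, the cystine importer, fell from 248, 254 and 243 CPM in control to 171, 216 and 208 CPM with D-serine (log2 fold change -0.32, SE 0.070, edgeR adjusted p = 0.0162). The groups of Slc7a11 did not overlap, and D-serine replicate 1 was again the lowest library of this gene of 9227 exonic bases. Its log2 fold change was -0.23 without D-serine replicate 1 and -0.20 with the length trend removed, past the threshold in both, but the call was lost without control replicate 1 (adjusted p = 0.0667) or 2 (0.0751). Slc1a4, an exchanger of serine, alanine and cysteine, fell from 266 ± 3.47 CPM to 218 ± 3.69 CPM (± SD of 3 libraries, log2 fold change -0.29, edgeR adjusted p = 0.00336). Cth, which makes cysteine from cystathionine, had a log2 fold change of -0.086 (adjusted p = 0.219), and Cbs, the enzyme before it, of 0.11 (adjusted p = 0.567).

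The taurine carrier gene is a known target of NFAT5, a transcription factor activated by hypertonic stress. Of 10 listed genes of that response, 6 were tested, of which 2 were past the threshold as lower and 0 as higher, beside 4.90% and 4.84% of all tested genes. The median log2 fold change of the 6 was -0.14, with 5 below and 1 above 0. Nfat5 itself fell from 492, 461 and 423 CPM in control to 295, 387 and 373 CPM with D-serine (log2 fold change -0.38, SE 0.084, adjusted p = 0.0167 in edgeR). The groups of Nfat5 did not overlap, and D-serine replicate 1 was the lowest. Nfat5 is long, at 13443 exonic bases, and its log2 fold change was -0.27 without D-serine replicate 1 and -0.22 (adjusted p = 0.000320) with the length trend removed. The call was lost without control replicate 1 (-0.33, adjusted p = 0.0816), without control replicate 2 (-0.38, 0.0713) and with the replicate block (-0.39, 0.0523).

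Slc38a2, a sodium-coupled neutral amino acid carrier that also belongs to the response to amino acid shortage, fell from 1043 ± 11.98 CPM to 830 ± 27.3 CPM (± SD of 3 libraries, log2 fold change -0.33, edgeR adjusted p = 0.00145). Slc5a3, the inositol transporter and another osmolyte carrier of the list, stood at 36.1, 36.5 and 35.5 CPM in the controls and at 29.3, 34.2 and 36.7 CPM with D-serine. These groups overlapped (log2 fold change -0.11, SE 0.075, adjusted p = 0.372 in edgeR), and the sign was positive with the length trend removed (0.037). Over the fits without 1 library the log2 fold change of Slc5a3 ran from -0.18 to -0.022. Akr1b3, which makes the osmolyte sorbitol, is listed at 0 in every library, but it shares 1352 of its 1402 exonic bases with Gm6644 on the same strand, also at 0, so nothing can be read from it. Hspa1a and Hspa1b, near-identical heat shock genes, had counts in 1 and 2 libraries only.

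**Figure D4:**
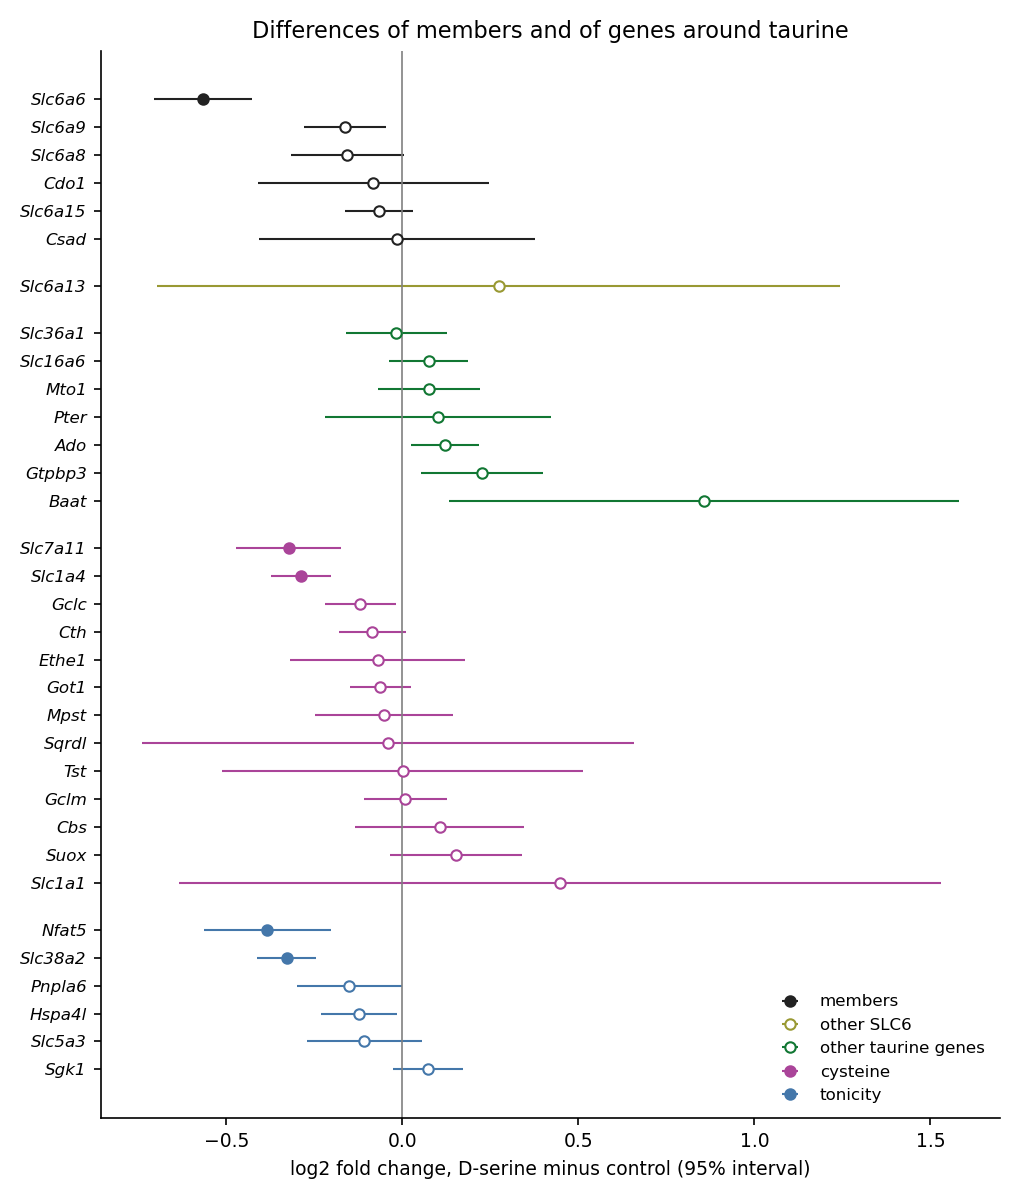
Log2 fold change of D-serine against control with its 95% interval (horizontal axis) for the tested members, the tested SLC6 gene outside them, and the tested genes of the taurine, cysteine and tonicity lists; filled points are past an adjusted p of 0.05 in the edgeR fit. Slc6a6 lies at -0.57, the 4 other filled points between -0.38 and -0.29, and no taurine gene outside the members is filled.

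The remaining lists cover creatine, glycine and GABA. Of 7 creatine genes, 5 were tested and none was past the threshold, beside 9.74% of all tested genes in either direction. Gamt, which completes creatine synthesis, stood at 2.26 ± 0.67 CPM in the controls and 2.47 ± 0.44 CPM with D-serine (± SD of 3 libraries, edgeR adjusted p = 0.768). Gatm, which starts it, had counts in 1 control and 1 D-serine library only. Ckb, brain creatine kinase, was at 6.03 ± 0.33 and 6.74 ± 0.67 CPM (adjusted p = 0.395). Of 12 glycine and GABA genes, 8 were tested and 1 was called lower, beside 4.90% of all tested genes: Shmt2, the mitochondrial enzyme that makes glycine from serine, at 1062 ± 40.2 CPM in the controls and 959 ± 19.2 CPM with D-serine (edgeR adjusted p = 0.0362, log2 fold change -0.15). Of the fits that left out 1 library, only that without D-serine replicate 1 kept this call, with adjusted p-values of 0.0861, 0.123 and 0.144 without control replicates 1 to 3 and of 0.0662 and 0.122 without D-serine replicates 2 and 3. The call was also lost under upper quartile scaling (0.0930), library totals (0.0748) and the replicate block (0.103).

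Taurine leaves swollen cells through the volume-regulated anion channel, built from LRRC8 proteins. Of its 5 subunit genes, 4 were tested and none was past the threshold, beside 9.74% of all tested genes in either direction. The median log2 fold change of the 4 was -0.023. Lrrc8a, the subunit that every channel needs, measured 55.8, 56.9 and 52.9 CPM in the controls and 52.6, 57.1 and 55.1 CPM with D-serine, with overlapping groups (log2 fold change -0.0065, 95% interval -0.12 to 0.11, edgeR adjusted p = 0.957). Over the 6 lists on taurine, cysteine, creatine, glycine and GABA, tonicity and the anion channel, 43 of 58 genes were tested. Of these, 5 were called lower (11.6%) and 0 higher, beside 4.90% of all tested genes called lower and 4.84% called higher. The median log2 fold change of the 43 was 0.00045. The 5 lower genes all had means above 100 CPM, a level at which 338 of 2735 tested genes other than Slc6a6 were called lower. The lists were chosen with earlier results of these data known, so nothing is read from these counts or from those of the single lists. Without control replicate 1 or without control replicate 2 the number of lower list genes was 2 in each case, when 45 and 21 of all genes were called lower.

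Over the 6 libraries, the profile of Slc6a6 was compared with 9795 other genes of at least 5 CPM by Pearson's r of log2 CPM. The 5 most alike were Rbbp5 (r = 0.998), Ampd2 (0.997), Akt1 (0.996), Adam9 (0.996) and Aplp2 (0.996). Their differences were smaller than that of Slc6a6, with log2 fold changes of -0.16, -0.20, -0.20, -0.15 and -0.14. The 5 most opposed were Llph (r = -0.9996), Gpx4 (-0.999), Zbtb8os (-0.997), Spsb2 (-0.997) and Rasl11a (-0.995). Gpx4, a glutathione peroxidase that reduces lipid peroxides, measured 231, 231 and 232 CPM in the controls and 292, 263 and 277 CPM with D-serine. In each of these genes the controls lay close together and D-serine replicate 1 lay farthest from them, as in Slc6a6. The 6 points share the 2 groups and the same libraries, so such values describe the shape only. The correlations were not computed without D-serine replicate 1. The 5 alike genes had 2690 to 4039 exonic bases and the 5 opposed genes 660 to 1534.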

How the data were processed

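Poly(A) RNA libraries were made with a stranded kit, per the labels' protocols. The authors deposited raw counts per gene with summed exonic lengths, in featureCounts columns per the file headers. HISAT2, featureCounts and the GRCm38 build are named in the submitters' processing notes, without versions, but 0 of 7 members start where RefSeq's GRCm38.p6 table has them, so coordinates are those of the deposited table, counted from 1, whose own build is unnamed. Strand setting and multiply mapped reads are not given in the sources used here. Column names with vehicle were matched to the control titles of the same number. No columns were left unused. Some results are not reported here.

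Counts were fitted in edgeR 4.0.16 (R 4.3.3): filterByExpr, TMM scaling, quasi-likelihood F test over 13366 genes, two-sided, Benjamini-Hochberg over all of them, threshold 0.05, no covariate. The standard error is the log2 fold change divided by the square root of F, and its 95% interval uses the t distribution with the fit's degrees of freedom. CPM are counts per 1000000 of the TMM-adjusted library size, and means carry the SD of 3 libraries. The fit was tested on simulated data with the same dispersion in every gene and library and no trend on length. That test therefore does not cover the departure of D-serine replicate 1. Chi-square statistics per degree of freedom of replicate pairs were 3.88 to 17.7, so no pair was taken as 1 library.

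The members, the lists and the rule for named genes were chosen with earlier results of these data known. The rule names all members, every other SLC6 gene that passes the filter, list genes past the threshold, 11 defining transporters or enzymes, and the 5 genes most like and most opposed to Slc6a6. Other genes named, and the windows of length and level around Slc6a6, were chosen after their values were seen. Alternatives were DESeq2 1.42.0, its size factors in edgeR, upper quartile scaling, library totals, no filter, a replicate block, subtraction of every library's trend on length (natural spline, 5 degrees of freedom), that with the block, and leaving out each library.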

Additional observations from a re-analysis of the deposited data

How the results depend on the processing

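Of the members' log2 fold changes, those of Slc6a6, Slc6a8, Slc6a15 and Cdo1 kept their sign and their side of the threshold in all 14 alternatives. Slc6a9 was past the threshold with the length trend removed (-0.16, edgeR adjusted p = 0.0318), with that and the replicate block (-0.16, 0.0399), and over the fits without 1 library its log2 fold change ran from -0.21 to -0.12. The count of members called lower was then 2 with the length trend removed, 2 with that and the block, and 1 to 2 without 1 library. Csad was 0.015 under upper quartile scaling and 0.014 under library totals, and -0.16 to 0.093 without 1 library. Under library totals the control means of Slc6a6 and Cdo1 were 155 and 4.19 CPM.

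Same-numbered libraries did not deviate together, with correlations of -0.069, 0.020 and -0.019 for numbers 1 to 3, and not every library correlated best with its own number, so the numbers were not taken as pairs. With replicate number as a block, Slc6a6 stayed past the threshold (-0.57, edgeR adjusted p = 0.0127), and 298 genes passed, 178 higher and 120 lower, of which 3 lower genes were in the 6 lists.

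Over all genes, the counts past the threshold were 2043 with the length trend removed (1023 higher, 1020 lower). Upper quartile scaling gave 412 lower and 914 higher genes and library totals 412 and 944, against 655 and 647 with TMM, and 987 were lower with no filter. Without 1 library the counts ran from 68 to 1699 in all, 21 to 916 lower and 47 to 783 higher, and from 2 to 5 for lower list genes, with the lowest total without control replicate 2. In the 6 lists 1 gene was higher and 7 lower with the length trend removed, and 1 and 7 with that and the block. The sign changed for Lrrc8a (0.023 under upper quartile scaling, 0.023 under library totals, 0.021 with the length trend removed, 0.022 with that and the block, -0.036 to 0.025 without 1 library), Slc36a1 (0.012, 0.011, 0.039, 0.040, and -0.073 to 0.042, in the same order) and Slc5a3 (0.037 with the length trend removed, 0.036 with that and the block), and, without control replicate 2, for Gamt (range without 1 library -0.0086 to 0.40) and Slc6a13 (-0.033 to 0.70). The cause was not tested. The lowest counts behind a tested member were those of Csad and Cdo1, at 90 to 187 a library, and Slc6a13 had 8 to 22.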

Other observations

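Slc6a6 was set beside 207 other tested solute carrier genes, taken by symbol after the data were seen. Among the 147 others with a mean of at least 5 CPM, none was lower than Slc6a6, while 3 of all 207 were, the lowest being Slc38a5 at -0.997. Of the 207 others, 12 were lower and 4 higher past the edgeR threshold, beside 4.90% of all tested genes called lower and 4.84% called higher. Their median log2 fold change was -0.016. The 4 higher were Slc25a10, the mitochondrial dicarboxylate carrier (0.52, adjusted p = 0.00966), Slc10a3 (0.46, 0.0354), Slc25a11, the oxoglutarate carrier (0.43, 0.00145), and Slc25a40 (0.32, 0.0262). Outside the amino acid carriers, Slc12a2, the sodium, potassium and chloride cotransporter of volume regulation, fell from 103 ± 2.71 CPM to 81.9 ± 3.99 CPM (± SD of 3 libraries, log2 fold change -0.33, edgeR adjusted p = 0.00491). Of these 5, Slc25a11 and Slc12a2 were past the threshold in all 14 alternatives. Without control replicate 2 the others had adjusted p-values of 0.0579 (Slc25a10), 0.1395 (Slc10a3) and 0.0621 (Slc25a40), and without control replicate 1 Slc10a3 (0.103) and Slc25a40 (0.105) were not past it either. The same held for Slc10a3 without control replicate 3 (0.0534), D-serine replicate 1 (0.0543) or D-serine replicate 3 (0.0927), and for Slc25a40 without control replicate 3 (0.0751) or D-serine replicate 3 (0.0922). Over all 14 alternatives, Slc25a10 was past the threshold in 13, Slc25a40 in 9 and Slc10a3 in 8.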
